A study of Mus musculus with 203 samples.

Results

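The genes described here are 10 components of interleukin 6 (IL-6) signalling and the acute phase response that were chosen by name from the 43346 genes in the count table: the cytokines Il6 and Osm, the receptor chains Il6ra and Osmr, the inhibitor Socs3, and the acute phase genes Saa3, Hp, Orm1, Lrg1 and Lbp. No measured value decided which genes entered. Bulk RNA-seq was performed on airway and on parenchyma that had been separated by blunt dissection from the lungs of female Balb/C mice, which all labels give as 18 to 20 weeks old. The libraries form 20 groups, each a combination of exposure, time and tissue. In the 3-week model, mice received house dust mite (HDM) extract into the nose on 5 days per week, or phosphate buffered saline (PBS) as vehicle. There were 10 HDM libraries from each tissue, and 11 airway and 12 parenchyma PBS libraries. In the 11-week model, HDM was given over the first 3 weeks and then 3 times per week from week 4. Cigarette smoke (CS) was given 2 times a day on 5 days per week for 8 weeks, with PBS and normal air (AIR) as controls. The groups PBS.AIR, HDM.AIR, PBS.CS and HDM.CS each had a counterpart treated with the glucocorticoid dexamethasone (DEX) during week 11, which gave 16 groups of 10 libraries. The study counts its groups in mice, and the libraries of a group were taken as separate mice. Nothing in the labels ties the airway and parenchyma of one mouse together, so libraries of the 2 tissues were treated as independent although they may share mice.

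IL-6 binds the IL-6 receptor encoded by Il6ra, and oncostatin M, encoded by Osm, binds the receptor chain encoded by Osmr. Both complexes signal through the shared chain gp130 to the kinases of the JAK family and the transcription factor STAT3, and SOCS3 is induced by this signal and shuts it down. The acute phase response is best known in the liver, where IL-6 and related cytokines drive secretion of serum amyloid A, haptoglobin, orosomucoid, LRG1 and LPS-binding protein into blood, but several of these genes are also transcribed by lung epithelium, macrophages, neutrophils and adipose tissue. Glucocorticoids repress many inflammatory cytokine genes and are known to enhance the synthesis of several acute phase proteins.

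In mm10 coordinates of the GENCODE annotation, Il6 (ENSMUSG00000025746) lies on the plus strand at chr5:30013114-30019981, Osm (ENSMUSG00000058755) lies on the plus strand at chr11:4236420-4241026, Il6ra (ENSMUSG00000027947) lies on the minus strand at chr3:89864059-89913196, Osmr (ENSMUSG00000022146) lies on the minus strand at chr15:6813577-6874969 and Socs3 (ENSMUSG00000053113) lies on the minus strand at chr11:117966079-117970047. Of the acute phase genes, Saa3 (ENSMUSG00000040026) lies on the minus strand at chr7:46711998-46715700, Hp (ENSMUSG00000031722) lies on the minus strand at chr8:109575128-109579172, Orm1 (ENSMUSG00000039196) lies on the plus strand at chr4:63344560-63348163, Lrg1 (ENSMUSG00000037095) lies on the minus strand at chr17:56119678-56122001 and Lbp (ENSMUSG00000016024) lies on the plus strand at chr2:158306493-158332852. Each level below rests on the estimated count of the whole gene.

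RefSeq promoter windows (build GRCm38.p6) were at hand for 6 of the 10 genes, namely Il6, Il6ra, Osmr, Socs3, Saa3 and Lrg1. Il6 and Saa3 are shown because they stand for the induced cytokine and the induced acute phase protein of the comparisons below. Capitals mark matches to a C/EBP motif (TTGCNNAA, or TTNNGCAA on the other strand) and to the NF-kB motif, and none of the printed matches overlap. The Il6 stretch lies directly upstream of the gene on the plus strand at chr5:30012864-30013113, and the Saa3 stretch, read on the minus strand, ends just before the first annotated exon at chr7:46715701-46715926.
Il6: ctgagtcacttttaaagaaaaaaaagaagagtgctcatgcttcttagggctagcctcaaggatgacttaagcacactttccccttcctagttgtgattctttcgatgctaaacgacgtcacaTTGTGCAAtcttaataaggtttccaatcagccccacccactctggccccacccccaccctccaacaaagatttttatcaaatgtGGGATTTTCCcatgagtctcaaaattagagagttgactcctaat
Saa3: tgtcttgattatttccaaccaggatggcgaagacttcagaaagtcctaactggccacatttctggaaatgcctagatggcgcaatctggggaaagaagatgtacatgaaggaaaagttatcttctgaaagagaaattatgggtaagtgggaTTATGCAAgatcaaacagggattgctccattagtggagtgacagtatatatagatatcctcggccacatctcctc
In Il6 the NF-kB match began 44 bases before the RefSeq start, with the C/EBP match farther upstream, and in Saa3 the C/EBP match began 99 bases before it. The last 24 bases of the Saa3 window before that start lie inside the GENCODE gene and are not printed. Over the 250 bases before the start, 9.56% of 32851 promoter windows held the C/EBP motif and 3.9% the NF-kB motif. The STAT motif TTCNNNGAA, which reads the same on both strands and occurred in 7.02% of windows, was found in Socs3 alone among the 6 genes. The Socs3 window, like that of Osmr, lies wholly inside the GENCODE gene given above, because its RefSeq start lies farther downstream. The glucocorticoid response element motif occurred in 0.387% of windows and in none of the 6. These matches describe letters in a window and were not linked to any binding measurement.

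Library totals ran from 13003111 to 40240710 estimated counts with a median of 28090641, and levels are given as CPM, counts scaled to a common library size. Marker genes of airway (Scgb1a1, Acta2, Col2a1 and others) and of alveolar cells (Ager, Sftpc and others) separated the tissues, except that 13 libraries, 12 airway and 1 parenchyma, lay on the other side of the midpoint from their label. All 13 came from HDM groups, except 1 airway library of PBS.AIR.DEX, so leaving them out removes mainly HDM libraries. In 11-week airway, 7 of 8 airway markers were themselves called lower with HDM. A set of 3 libraries stood apart from their own groups: a parenchyma library of HDM.AIR.DEX with the lowest total and 44.6% of counts in its 10 most abundant genes, and 1 airway and 1 parenchyma library of HDM.AIR whose tissue markers were shifted. The 3-week PBS libraries of parenchyma also differed from the others, with 6.18% to 8.16% of counts from mitochondrial genes, against 2.67% to 5.04% in every other parenchyma group. The members called by HDM and by smoke alone numbered the same without the 3 libraries that stood apart, while more were called for smoke added to HDM.

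Per kilobase of exon, the median level over all libraries was highest for Hp, which encodes the haemoglobin scavenger haptoglobin, at 629.7 CPM per kb. Saa3, a serum amyloid A made outside the liver, followed at 80.9 and Lrg1, a secreted leucine-rich glycoprotein, at 70.7 CPM per kb. Orm1 (the plasma carrier orosomucoid) stood at 37.9, Lbp (LPS-binding protein, which hands bacterial lipopolysaccharide to CD14) at 24.1 and Socs3 at 18.8 CPM per kb. The receptor chains were lower, at 6.64 for Osmr and 3.28 for Il6ra. The length used was that of all annotated exons merged, which was greatest for these genes, at 12113 and 8642 bases. In CPM without length, the Osmr median of 80.4 exceeded those of Socs3, 54.4, and Orm1, 29.3. The cytokines were lowest, at 1.72 for Osm and 0.213 CPM per kb for Il6. An Il6 level therefore rested on few reads: 1 PBS.AIR.DEX parenchyma library had 0 counts, and no library reached 8 CPM. The group medians spanned 87.2-fold for Saa3 and 54.3-fold for Orm1, but only 1.70-fold for Osmr and 2.19-fold for Hp.

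**Figure D1:**
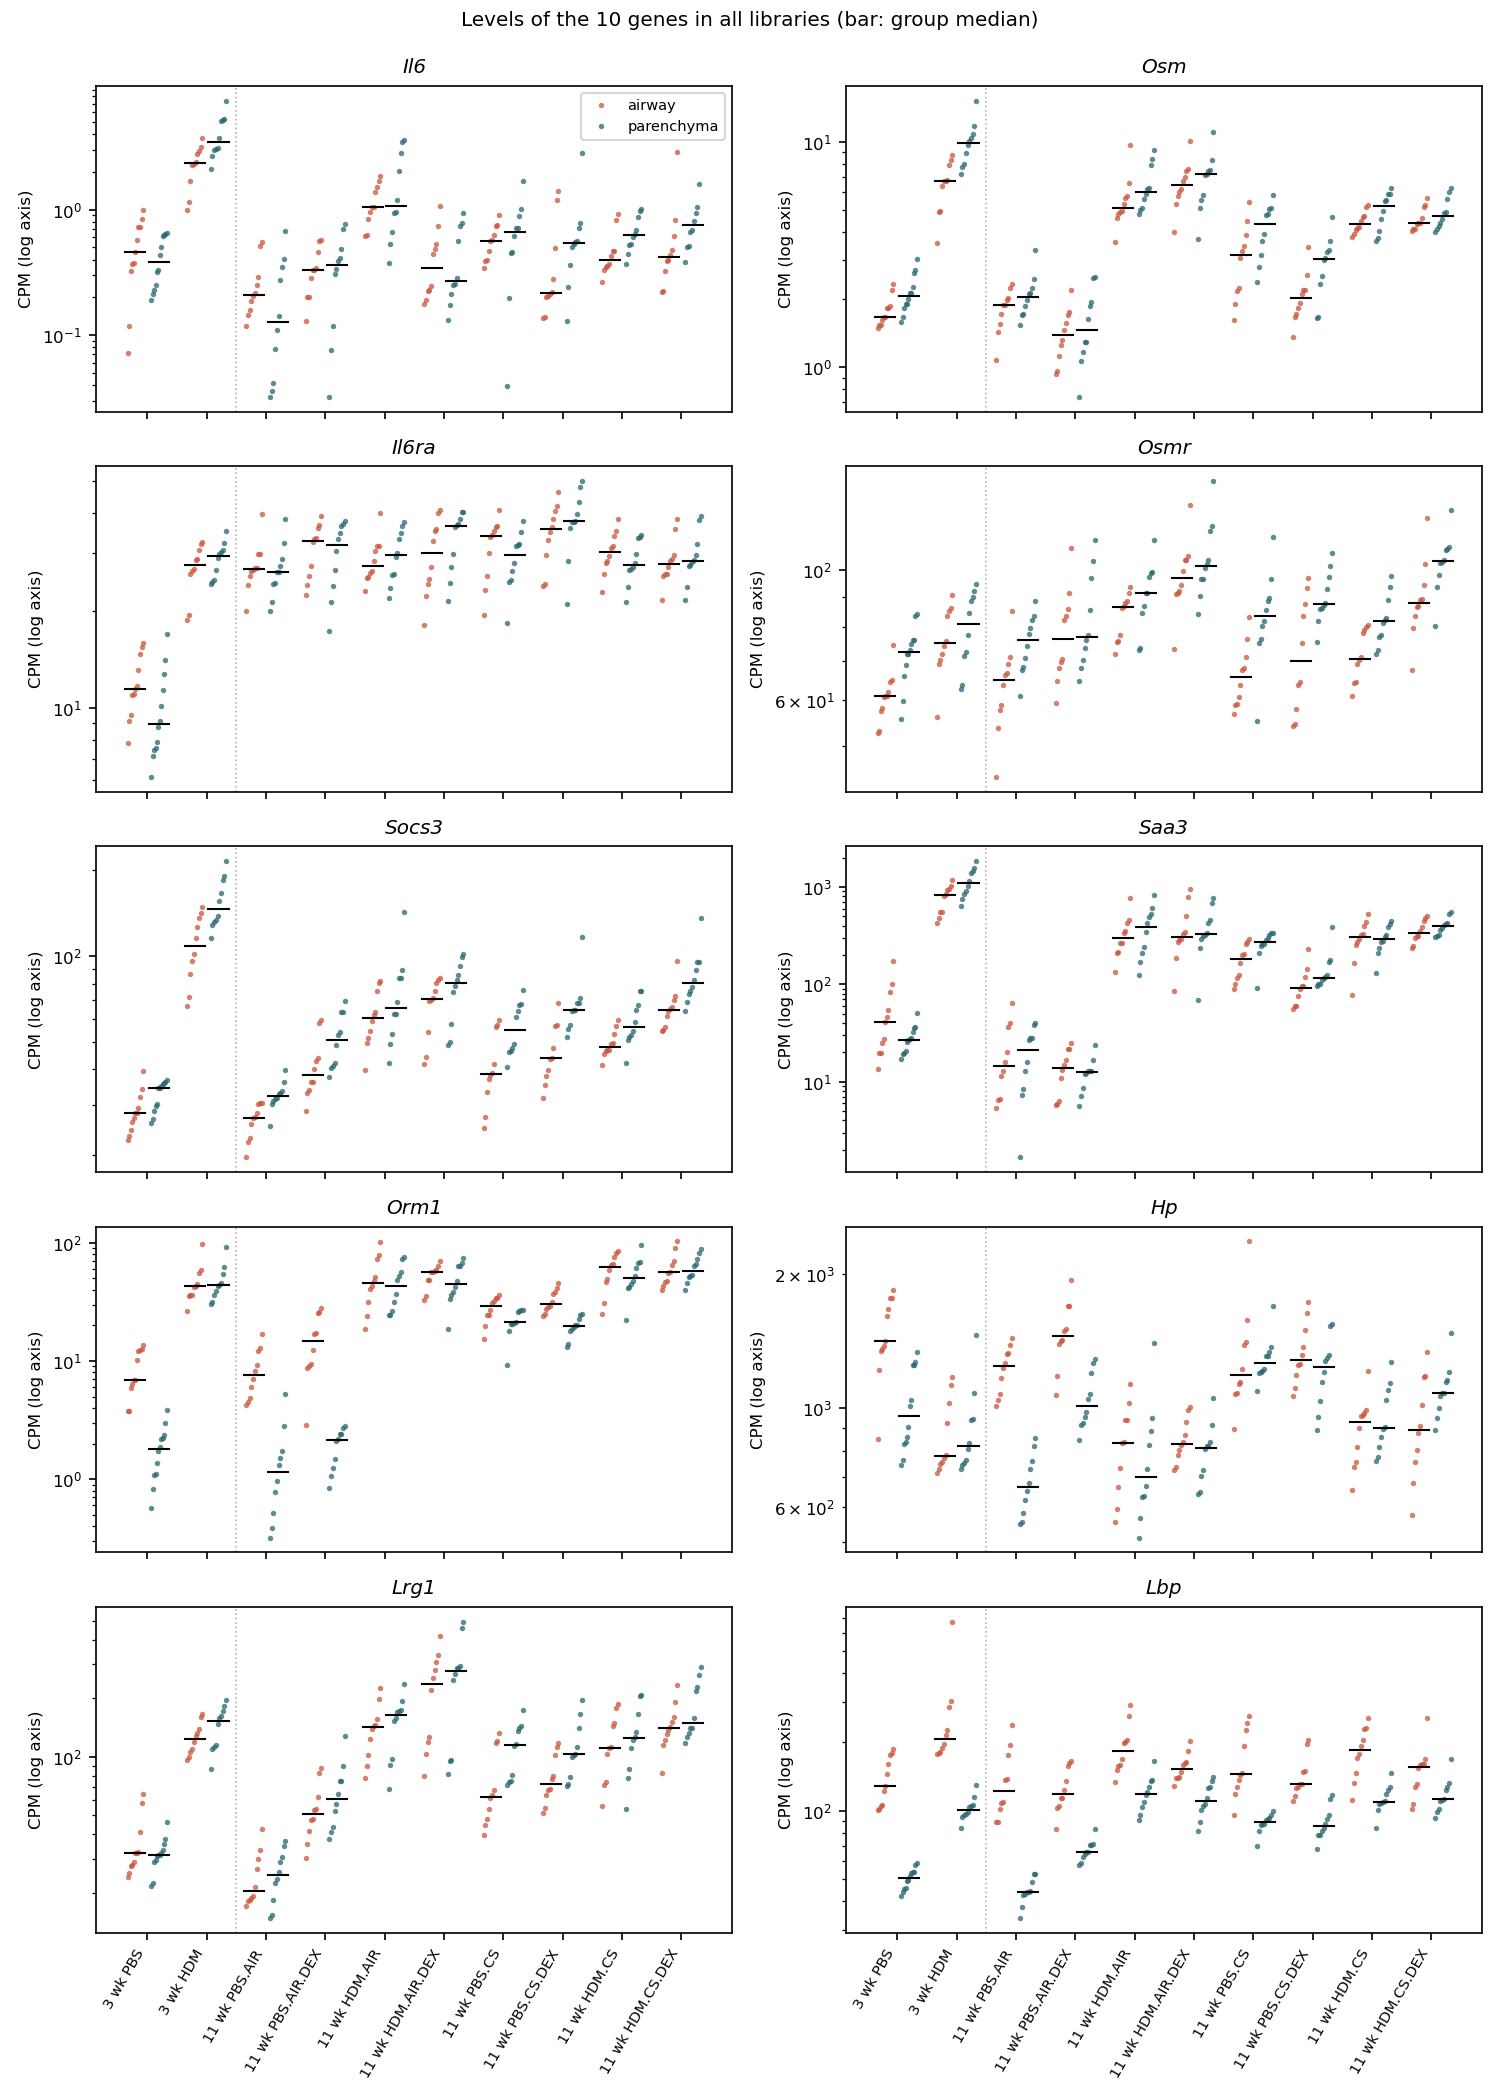
Levels of the 10 genes in CPM (log axis) in all libraries, by time and exposure, with airway and parenchyma side by side, points ordered by value and black bars at group medians; the single Il6 library at 0 is drawn at the lowest value above 0. Saa3 and Orm1 span the widest range between groups, Il6ra is low in the 3-week PBS groups alone, and Osmr and Hp move least.

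To find which of these genes respond to HDM, HDM and PBS mice were compared in each tissue at 3 weeks. A gene was called where limma-voom gave an adjusted p below 0.05 and an absolute log2 fold change (log2FC) of at least 1, and it is said to have risen or fallen where the adjusted p alone passed. In both tissues 7 of the 10 genes were called higher, Il6, Osm, Il6ra, Socs3, Saa3, Orm1 and Lrg1, and none lower. Of all genes tested, 12.1% were called higher in airway and 14.5% in parenchyma, and 11.8% and 15.1% were called lower. Fold changes below are given with their standard error. Overlap between groups of libraries was looked at for the 10 genes only, and the share of all genes without overlap is not known.

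Il6 in the 3-week airway ranged from 0.0719 to 0.991 CPM with a median of 0.461 in PBS libraries, and from 0.991 to 3.76 CPM with a median of 2.35 in HDM libraries. The lowest HDM library was level with the highest PBS library and the other 9 lay above it, and the fitted increase was 4.97-fold (log2FC 2.31 ± 0.33, adjusted p = 5.1e-08). Parenchyma separated fully, from 0.191 to 0.657 CPM with a median of 0.381 in PBS and from 2.12 to 7.39 CPM with a median of 3.44 in HDM mice, a 9.04-fold increase (log2FC 3.18 ± 0.34, adjusted p = 2.6e-11). Osm, a cytokine of myeloid cells, lay from 1.497 to 2.35 CPM with a median of 1.68 in PBS airway and from 3.55 to 8.75 CPM with a median of 6.70 in HDM airway (log2FC 1.79 ± 0.15, adjusted p = 1.8e-13). In parenchyma its levels went from 1.59 to 3.03 CPM with a median of 2.08 to a range from 7.17 to 15.2 CPM with a median of 9.86 (log2FC 2.12 ± 0.15, adjusted p = 2.4e-16). No HDM library overlapped a PBS library for Osm in either tissue.

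Il6ra rose 2.23-fold in airway, where PBS libraries ran from 7.81 to 15.8 CPM with a median of 11.4 and HDM libraries from 18.7 to 32.5 CPM with a median of 27.7 (log2FC 1.16 ± 0.12, adjusted p = 2.9e-11). In parenchyma the increase was 2.84-fold, PBS libraries lying from 6.14 to 16.98 CPM with a median of 8.95 and HDM libraries from 24.2 to 35.2 CPM with a median of 29.5 (log2FC 1.51 ± 0.13, adjusted p = 1.6e-13). The groups did not overlap in either tissue. The 3-week HDM medians of Il6ra were close to those of the 11-week PBS.AIR controls, 26.8 CPM in airway and 26.3 in parenchyma. Its 3-week PBS groups were thus the low ones, as taken up below. The other receptor chain, Osmr, rose slightly in airway, where its median was 60.9 CPM in PBS and 75 in HDM mice (log2FC 0.29 ± 0.079, adjusted p = 0.0013). In parenchyma the medians of Osmr were 72.6 and 81 CPM (log2FC 0.085, 95% interval -0.071 to 0.24, adjusted p = 0.32), and 5 of the alternative fits put that adjusted p below 0.05 with log2FC of 0.23 at most.

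Socs3, the feedback inhibitor of the pathway, ranged from 22.6 to 39.5 CPM with a median of 28.1 in PBS airway and from 67.03 to 148.2 CPM with a median of 108.5 in HDM airway, a 3.64-fold rise (log2FC 1.86 ± 0.12, adjusted p = 3e-17). PBS parenchyma held it within a narrow span, from 26.04 to 36.7 CPM with a median of 34.4, while HDM parenchyma ran from 116.1 to 215 CPM with a median of 146.8 (log2FC 2.19 ± 0.12, adjusted p = 1e-19). Its smallest HDM value was well above its largest PBS value in each tissue.

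Among the acute phase genes, Saa3 moved most. Airway levels ran from 13.4 to 173.5 CPM with a median of 41.2 in PBS mice and from 428 to 1169 CPM with a median of 823 in HDM mice, 17.4-fold higher (log2FC 4.12 ± 0.32, adjusted p = 5.2e-15). Parenchyma levels ran from 16.9 to 50.1 CPM with a median of 27.1 and from 639 to 1844 CPM with a median of 1094, 38.9-fold higher (log2FC 5.28 ± 0.33, adjusted p = 6e-18). The groups did not overlap in either tissue. Orm1 began from a higher level in airway, from 3.74 to 13.7 CPM with a median of 6.94, and reached a range from 26.6 to 97.3 CPM with a median of 42.8 (log2FC 2.47 ± 0.23, adjusted p = 1.4e-12). From 1.81 CPM at the median of PBS parenchyma it reached 43.7 CPM with HDM, a 25.8-fold rise (log2FC 4.69 ± 0.38, adjusted p = 1.5e-14). HDM brought both tissues to similar Orm1 medians. Orm1 has close copies in Orm2 and Orm3, and Saa3 has relatives in Saa1 and Saa2, so how the quantification divided shared reads between copies is uncertain.

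Lrg1 rose 3.57-fold in airway, its range moving from 24.04 to 64.3 CPM with a median of 32.01 in PBS to a range from 96.8 to 166.4 CPM with a median of 123.9 in HDM mice (log2FC 1.84 ± 0.15, adjusted p = 6.5e-14). Its increase in parenchyma was 4.31-fold (log2FC 2.11 ± 0.16, adjusted p = 7.9e-16), with no overlap between groups. Lbp rose by less than the limit of a call, with medians of 128.5 and 205 CPM in airway (log2FC 0.81 ± 0.15, adjusted p = 1.1e-05) and of 50.6 and 101 CPM in parenchyma (log2FC 0.96 ± 0.14, adjusted p = 8.5e-08). Hp went the other way. In airway it fell, PBS libraries lying from 850.5 to 1845 CPM with a median of 1411 and HDM libraries from 713 to 1171 CPM with a median of 778 (log2FC -0.78 ± 0.13, adjusted p = 1.4e-06). The parenchyma medians were 958 and 822 CPM (log2FC -0.21, 95% interval -0.47 to 0.034, adjusted p = 0.11).

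The same contrast was then made after 11 weeks, between HDM.AIR and PBS.AIR. Here 6 genes were called higher in airway (Il6, Osm, Socs3, Saa3, Orm1 and Lrg1) and 7 in parenchyma, the same 6 with Lbp, against 10.6% and 13% of all genes. No member was called lower, where 8.53% and 6.12% of all genes were. Il6 in airway rose from a median of 0.210 to 1.06 CPM without overlap (log2FC 2.19 ± 0.44, adjusted p = 5.4e-06). In parenchyma it ranged from 0.0320 to 0.677 CPM with a median of 0.127 in PBS.AIR and from 0.378 to 3.61 CPM with a median of 1.07 in HDM.AIR, where 7 of 10 libraries exceeded all controls (log2FC 3.10 ± 0.49, adjusted p = 1.1e-08). Osm had airway medians of 1.89 and 5.11 CPM (log2FC 1.61 ± 0.18, adjusted p = 7.1e-15) and parenchyma medians of 2.05 and 6.01 CPM (log2FC 1.66 ± 0.17, adjusted p = 5.2e-16). For Osm the groups stayed apart in both tissues.

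Il6ra no longer differed detectably at 11 weeks. Airway libraries ran from 19.9 to 39.5 CPM with a median of 26.8 in PBS.AIR and from 22.9 to 40.1 CPM with a median of 27.4 in HDM.AIR (log2FC 0.098, 95% interval -0.17 to 0.36, adjusted p = 0.54), and parenchyma gave a similar picture (log2FC 0.21, 95% interval -0.060 to 0.47, adjusted p = 0.18). Osmr rose slightly in airway (log2FC 0.43 ± 0.095, adjusted p = 3e-05) and in parenchyma (log2FC 0.33 ± 0.095, adjusted p = 0.0015). Socs3 reached medians of 60.5 CPM in airway and 65.9 in parenchyma, from 27.1 and 32.4 CPM, with all HDM.AIR libraries above the controls (log2FC 1.23 ± 0.15, adjusted p = 8.4e-13 in airway; log2FC 1.17 ± 0.15, adjusted p = 5.3e-12 in parenchyma).

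Saa3 in HDM.AIR airway ranged from 132.5 to 771 CPM with a median of 299.8, while PBS.AIR ran from 5.35 to 64.4 CPM with a median of 14.5 (log2FC 4.33 ± 0.35, adjusted p = 1.8e-22). Its parenchyma medians were 388 and 21.3 CPM (log2FC 4.56 ± 0.37, adjusted p = 5.7e-23). Orm1 showed the largest ratio of any member in parenchyma, 39.6-fold, from 1.15 to 42.8 CPM at the medians (log2FC 5.31 ± 0.52, adjusted p = 1.8e-17), and rose 6-fold in airway (log2FC 2.58 ± 0.29, adjusted p = 1.6e-14). Lrg1 rose 5.79-fold in airway (log2FC 2.53 ± 0.26, adjusted p = 1.7e-16) and 6.21-fold in parenchyma (log2FC 2.63 ± 0.26, adjusted p = 4.3e-17). For Saa3, Orm1 and Lrg1, HDM.AIR did not overlap PBS.AIR in either tissue. Lbp in parenchyma ranged from 33.9 to 52.8 CPM with a median of 44.1 in PBS.AIR and from 91.01 to 165.6 CPM with a median of 118.7 in HDM.AIR, again without overlap (log2FC 1.49 ± 0.13, adjusted p = 4.1e-20). The airway rise of Lbp was smaller (log2FC 0.53 ± 0.14, adjusted p = 0.00037). Hp fell in airway, where 8 of 10 HDM.AIR libraries lay below every PBS.AIR library (log2FC -0.57 ± 0.12, adjusted p = 2.5e-05), and had medians of 664 and 698 CPM in parenchyma (log2FC 0.21, 95% interval -0.015 to 0.45, adjusted p = 0.1).

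**Figure D2:**
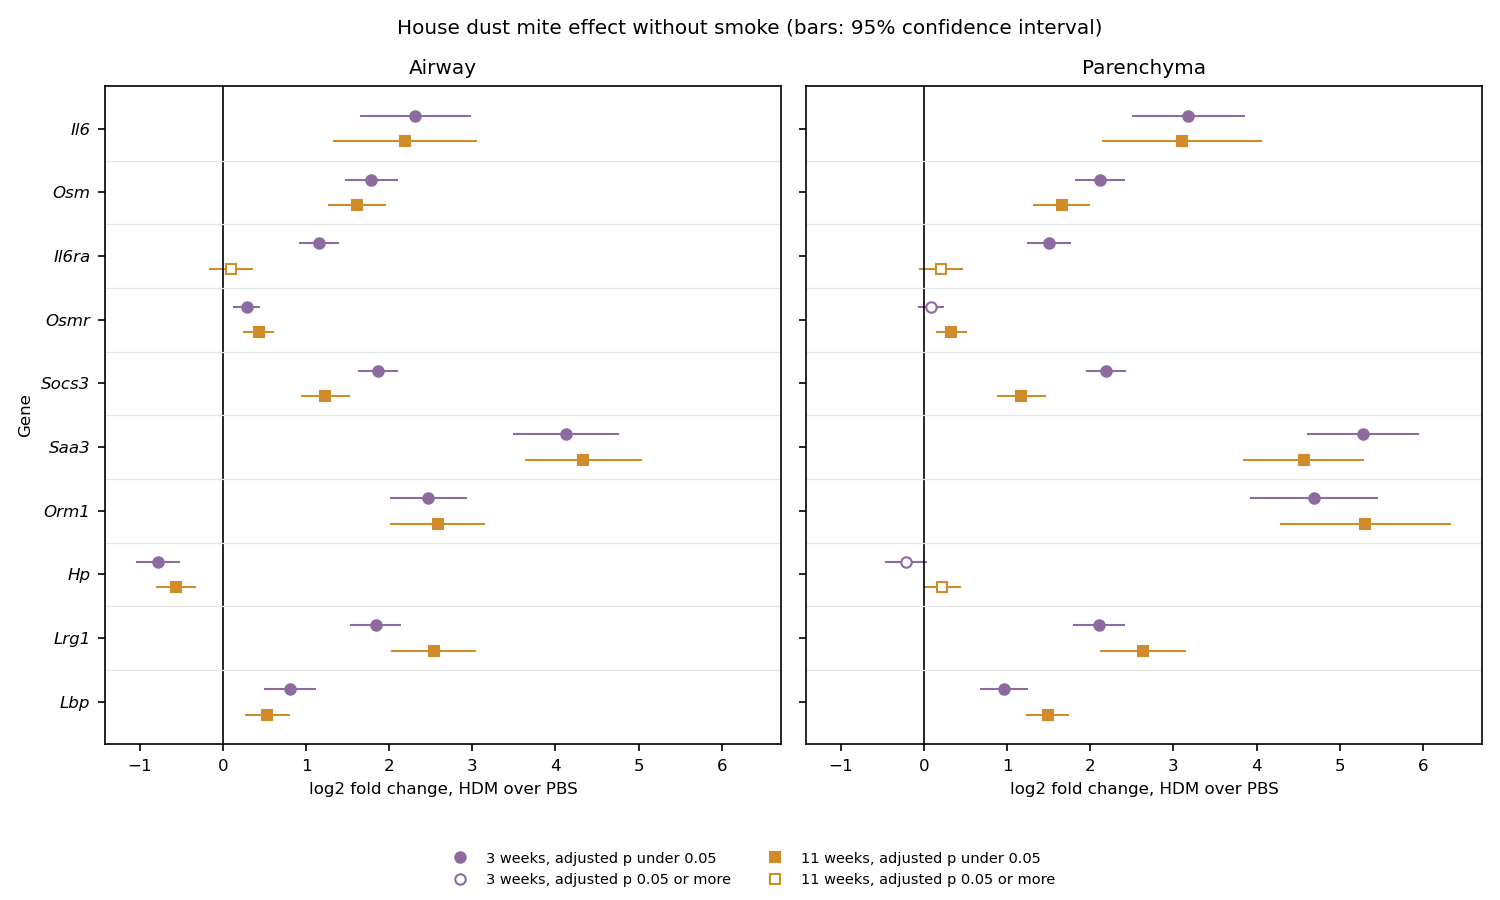
Log2 fold change of HDM over PBS with 95% confidence intervals for each gene in airway (left) and parenchyma (right), at 3 weeks (circles) and at 11 weeks in air (squares); filled symbols have an adjusted p below 0.05. Saa3 and Orm1 lie farthest to the right, Il6ra is filled at 3 weeks only, and Hp lies below 0 in airway at both times.

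The size of the HDM effect was compared between the 2 times in a fit of all libraries. In airway, the effect at 11 weeks was smaller than at 3 weeks for Il6ra (log2FC -1.12 ± 0.19, adjusted p = 1.9e-06) and Socs3 (log2FC -0.69 ± 0.20, adjusted p = 0.0052), and 28.4% of all genes had an adjusted p below 0.05. In parenchyma it was smaller for Il6ra (log2FC -1.42 ± 0.21, adjusted p = 2.7e-09), Socs3 (log2FC -1.15 ± 0.20, adjusted p = 8.6e-07) and Osm (log2FC -0.58 ± 0.23, adjusted p = 0.034), beside 42.4% of all genes. The Osm value lost significance in 2 alternative fits, with an adjusted p of up to 0.066, and Saa3 in parenchyma (log2FC -0.84, 95% interval -1.85 to 0.17, adjusted p = 0.18) and Lbp (log2FC 0.40, 95% interval 0.030 to 0.77, adjusted p = 0.074) each passed in 3. For Il6ra the HDM groups did not differ detectably between times and the PBS groups did. Control airway medians were 11.4 CPM at 3 weeks and 26.8 at 11 weeks (log2FC 1.22 ± 0.14, adjusted p = 5.1e-13), and control parenchyma medians were 8.95 and 26.3 CPM (log2FC 1.47 ± 0.16, adjusted p = 1.4e-15). In parenchyma these 3-week PBS libraries are those with the high mitochondrial share. In airway their share, 5.49% to 9.41%, overlapped that of PBS.AIR, 4.32% to 9.06%. Between the control groups of the 2 times, 44.3% of genes in airway and 55.4% in parenchyma differed. Time, model and library set cannot be told apart there, nor in the comparisons of the HDM groups between times. For those the share of all genes is not given here. Socs3 was the converse: its control medians were close, and its HDM level fell, from a median of 146.8 to 65.9 CPM in parenchyma (log2FC -1.14 ± 0.14, adjusted p = 1e-11). Il6 was lower at 11 weeks in HDM parenchyma as well (log2FC -1.56 ± 0.28, adjusted p = 7.2e-07), and in control parenchyma (log2FC -1.36 ± 0.53, adjusted p = 0.023). Saa3 was lower at 11 weeks than at 3 weeks in HDM airway (log2FC -1.25 ± 0.36, adjusted p = 0.004) and HDM parenchyma (log2FC -1.70 ± 0.37, adjusted p = 6e-05), but it was also lower in the controls (log2FC -1.40 ± 0.33, adjusted p = 0.00017 in airway; log2FC -0.86 ± 0.35, adjusted p = 0.03 in parenchyma).

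The rest of the pathway moved unevenly. Among 8 other cytokines of the gp130 family, of which 7 were measurable at 3 weeks, Il27 and Ebi3, the subunits of interleukin 27, were called higher with HDM in both tissues and at both times, from log2FC 1.43 to 2.31 for Il27 and from 1.48 to 2.57 for Ebi3. Of 6 other receptor chains of that family, 5 of them measurable at 11 weeks, Cntfr, the ciliary neurotrophic factor receptor, was called lower in all 4 HDM comparisons, and Lifr, the receptor for leukaemia inhibitory factor, in 3 of them (3-week parenchyma, log2FC -2.26, adjusted p = 6.7e-22). Il27ra was called higher in all 4. The inhibitor gene Socs1 and the phosphatase gene Ptpn6 were called higher in all 4 HDM comparisons (Socs1 in 3-week parenchyma, log2FC 2.6, adjusted p = 3.9e-12). Of 6 transcription factors and kinases induced by such signals, 2 or 3 were called higher, with the kinase Pim1 and the NF-kB cofactor Bcl3 in all 4 comparisons (Pim1 in 3-week parenchyma, log2FC 2.01, adjusted p = 1.4e-20). The fold changes named here come from the same fits as those of the 10 genes.

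Other acute phase proteins followed Saa3 and Orm1 more than Hp. Of 27 listed, 24 were measurable, and with HDM 17 were called higher in 3-week airway, 18 in 3-week parenchyma, 14 in 11-week airway and 18 in 11-week parenchyma, with 1 called lower, Hamp (hepcidin) in 11-week airway. The median log2FC of the list was 1.64, 2.67, 1.43 and 2.14 in that order, where the median over all genes lay between -0.13 and 0.047. Orm2 rose strongly at 11 weeks (log2FC 4.27, adjusted p = 1.4e-15 in airway; log2FC 5.11, adjusted p = 4e-14 in parenchyma). Lcn2, the siderophore-binding lipocalin 2, went from a median of 98.5 CPM in PBS.AIR parenchyma to 1855 in HDM.AIR (log2FC 4.09, adjusted p = 1.3e-33). Il1rn, the antagonist of interleukin 1, and the protease inhibitor Timp1 were among the 3 largest changes of the list in both tissues at 3 weeks (log2FC 4.78, adjusted p = 6.1e-21 and log2FC 5.79, adjusted p = 8.1e-19 in parenchyma).

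Markers of infiltrating cells moved with these genes. The summed level of 7 neutrophil markers ran from 89.5 to 344 CPM in 3-week PBS airway and from 513 to 1450.0 CPM in HDM airway, and all 7 were called higher in both tissues at 3 weeks. The corresponding medians in parenchyma were 427 and 1637 CPM. Of 7 macrophage markers 4 were called higher in each tissue at 3 weeks and 1 lower in airway. Their summed median went from 644 to 8254 CPM in parenchyma. A sum weighs the most abundant markers most, and the median log2FC of the 7 markers in that comparison was 1.555. In bulk tissue, more cells of a type and more RNA per cell cannot be told apart, and the part of these markers in the rise of the 10 genes was not tested. Liver contamination was looked for with 6 hepatocyte markers: Apoa2 had a median of 0 in all 20 groups, and Alb (albumin) had group medians of at most 0.387 CPM. The summed level of the markers had medians between 10.8 and 35.2 CPM and thus came mostly from other markers of the list. Of these, Serpina1b was called higher with HDM in 3-week parenchyma, and Fabp1 was called lower with HDM in both tissues at both times. In airway, 6 of 6 adipose markers were called lower with HDM at both times, the summed median going from 409.6 to 56.3 CPM at 3 weeks and from 520.2 to 115.1 CPM at 11 weeks, beside the fall of Hp there. Their part in that fall was not tested.

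The effect of smoke without HDM was measured between PBS.CS and PBS.AIR, which shares its control libraries with the HDM comparison at 11 weeks. Smoke raised 3 of the 10 genes past the limit in airway, Saa3, Orm1 and Lrg1, where 1.73% of all genes were called higher. In parenchyma it raised 5, Il6, Saa3, Orm1, Lrg1 and Lbp, beside 4.21% of all genes. None was called lower in either tissue, beside 1.06% of all genes in airway and 1.12% in parenchyma.

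Saa3 ranged from 88.6 to 295 CPM with a median of 182.6 in PBS.CS airway, entirely above PBS.AIR (log2FC 3.43 ± 0.35, adjusted p = 5.1e-15), and from 91.4 to 339 CPM with a median of 272 in PBS.CS parenchyma, also without overlap (log2FC 4.08 ± 0.36, adjusted p = 3.8e-19). Orm1 reached from 15.4 to 36.2 CPM with a median of 29.1 in airway (log2FC 1.82 ± 0.29, adjusted p = 5.2e-07), where 9 of 10 smoke libraries exceeded all controls. In parenchyma it ran from 9.17 to 27.1 CPM with a median of 21.3, from a control median of 1.15, a fitted 19.2-fold rise (log2FC 4.26 ± 0.53, adjusted p = 1.5e-11). Lrg1 rose 2.91-fold in airway (log2FC 1.54 ± 0.25, adjusted p = 1e-06) and 4.52-fold in parenchyma (log2FC 2.18 ± 0.26, adjusted p = 2.8e-12). Lbp in smoke-exposed parenchyma ranged from 70.04 to 99.5 CPM with a median of 89.4 and did not overlap the controls (log2FC 1.01 ± 0.13, adjusted p = 8.3e-11), while in airway it differed less (log2FC 0.28, 95% interval 0.012 to 0.55, adjusted p = 0.17). Hp, which did not rise detectably with HDM in either tissue, rose with smoke in parenchyma from 549 to 854 CPM with a median of 664 to a range from 1091 to 1695 CPM with a median of 1265, just short of the limit of a call (log2FC 0.95 ± 0.12, adjusted p = 3.2e-11). Its airway medians were 1245 and 1184 CPM (log2FC 0.072, 95% interval -0.18 to 0.32, adjusted p = 0.79).

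For the cytokines, Il6 in parenchyma ranged from 0.0390 to 1.70 CPM with a median of 0.660 with smoke, and 5 of 10 libraries exceeded all controls (log2FC 1.76 ± 0.53, adjusted p = 0.0052). The airway increase in Il6 missed the threshold (log2FC 1.17, 95% interval 0.25 to 2.10, adjusted p = 0.081) and passed it, with an adjusted p of 0.023, in a fit of that tissue alone. Osm rose in airway (log2FC 0.71 ± 0.19, adjusted p = 0.0044) and parenchyma (log2FC 0.95 ± 0.18, adjusted p = 9.6e-06), and Socs3 rose in airway (log2FC 0.60 ± 0.15, adjusted p = 0.0022) and parenchyma (log2FC 0.79 ± 0.15, adjusted p = 5.6e-06). The receptors Il6ra and Osmr showed no detectable change, with 95% intervals within -0.088 to 0.43 for Il6ra and -0.024 to 0.35 for Osmr on the log2 scale in the tissue of the larger estimate, although Osmr in parenchyma passed, at an adjusted p of 0.021, with sample quality weights. Among the other acute phase proteins 12 of 24 were called higher and 1, Hamp, lower in airway, and 17 of 24 were called higher in parenchyma, led in parenchyma by Saa4, Orm2 and Lcn2 (log2FC 3.69, adjusted p = 4.1e-29 for Lcn2). Among the other cytokines none was called in either tissue. Neutrophil markers were called higher in 6 of 7 cases in airway and 5 of 7 in parenchyma, and the summed median in parenchyma was 236 CPM in PBS.AIR and 559 in PBS.CS. None of the 6 adipose markers was called in airway with smoke, where the summed medians were 520.2 and 703 CPM in PBS.AIR and PBS.CS.

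When smoke was added to HDM, Saa3, Orm1, Lrg1 and Lbp did not rise further detectably in either tissue. HDM.CS was compared with HDM.AIR, and only Il6 in airway was called, as lower, beside 2.64% of all genes in airway and 4.36% in parenchyma. Il6 in airway ranged from 0.621 to 1.85 CPM with a median of 1.06 in HDM.AIR and from 0.265 to 0.929 CPM with a median of 0.396 in HDM.CS, with 8 of 10 HDM.CS libraries below every HDM.AIR library (log2FC -1.31 ± 0.38, adjusted p = 0.0097). It fell in parenchyma as well (log2FC -0.99 ± 0.36, adjusted p = 0.033), together with Osm (log2FC -0.39 ± 0.14, adjusted p = 0.034), and Hp rose there (log2FC 0.31 ± 0.12, adjusted p = 0.042). These 3 parenchyma differences each lost significance in 2 or 3 alternative fits. Saa3 medians were 299.8 and 307 CPM in airway (log2FC -0.17, 95% interval -0.85 to 0.51, adjusted p = 0.79) and 388 and 291 CPM in parenchyma (log2FC -0.28, 95% interval -0.95 to 0.41, adjusted p = 0.62). For Orm1 the interval was also centred near 0 (log2FC 0.26, 95% interval -0.17 to 0.70, adjusted p = 0.47 in airway; log2FC 0.27, 95% interval -0.17 to 0.71, adjusted p = 0.42 in parenchyma).

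**Figure D3:**
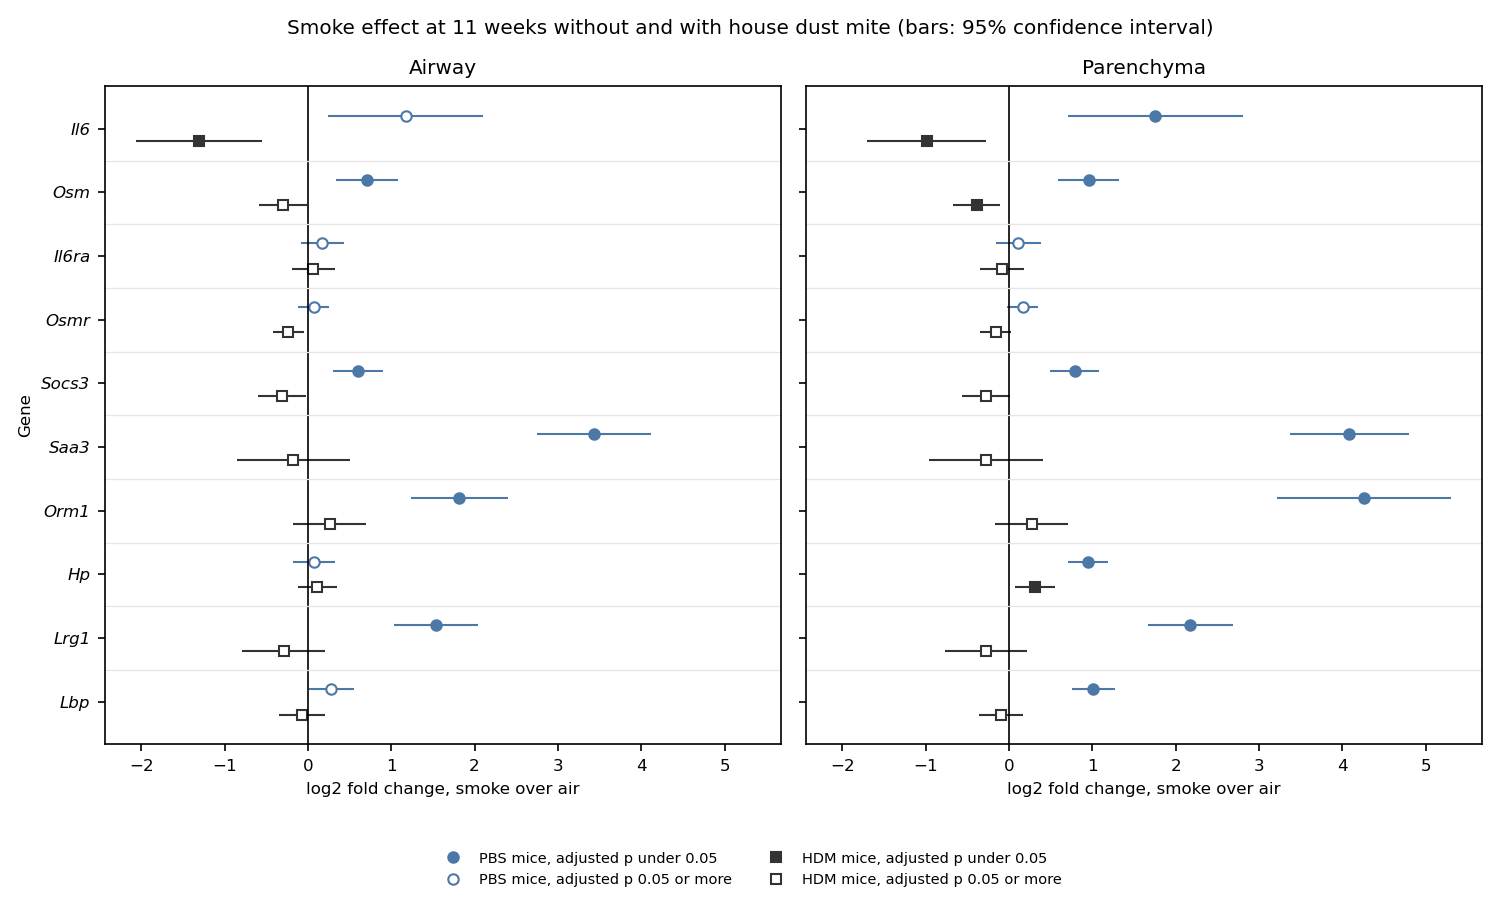
Log2 fold change of smoke over air with 95% confidence intervals in PBS mice (circles) and in HDM mice (squares), for airway (left) and parenchyma (right); filled symbols have an adjusted p below 0.05. Saa3, Orm1, Lrg1, Socs3 and Osm lie above 0 in PBS mice and close to 0 or below it in HDM mice, and Il6 lies below 0 in HDM mice.

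The interaction of HDM and smoke, the HDM effect in smoke less that in air, was negative for all 10 genes in parenchyma and for all but Hp (0.042) in airway. In airway 6 of 10 had an adjusted p below 0.05, beside 19.1% of all genes, and in parenchyma 9 of 10, beside 36%, a background that is itself high. The largest values were those of Saa3 (log2FC -3.61 ± 0.49, adjusted p = 8.1e-09 in airway; log2FC -4.36 ± 0.50, adjusted p = 7.6e-13 in parenchyma) and of Orm1 in parenchyma (log2FC -3.99 ± 0.57, adjusted p = 4.5e-09). Il6 (log2FC -2.48 ± 0.61, adjusted p = 0.0014 in airway; log2FC -2.75 ± 0.64, adjusted p = 0.00024 in parenchyma), Lrg1 (log2FC -1.83 and -2.45), Osm (-1.01 and -1.34) and Socs3 (-0.91 and -1.07) passed in both tissues. Lbp (log2FC -1.11 ± 0.19, adjusted p = 3.8e-07), Hp (log2FC -0.64 ± 0.17, adjusted p = 0.0013) and Osmr (log2FC -0.32 ± 0.13, adjusted p = 0.049) passed in parenchyma only, which was not tested as a difference between tissues, and Osmr lost significance in 5 alternative fits. Orm1 in airway also passed (log2FC -1.55 ± 0.37, adjusted p = 0.0009). Il6ra passed in neither tissue (log2FC -0.11, 95% interval -0.48 to 0.26, adjusted p = 0.74 in airway; log2FC -0.20, 95% interval -0.57 to 0.18, adjusted p = 0.44 in parenchyma).

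Dexamethasone was compared with no dexamethasone in 4 exposure backgrounds, of which PBS.AIR also served as the control for HDM and smoke. In PBS.AIR mice Lrg1 alone was called, higher in both tissues, against 2.41% and 3.16% of all genes called either way. In HDM.AIR mice Il6 alone was called, lower in both tissues, against 5.86% and 6.02%. In PBS.CS no member was called in either tissue (2.48% and 2.75% of all genes), nor in HDM.CS (2.04% and 2.03%).

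Il6 in HDM.AIR.DEX airway ranged from 0.176 to 1.07 CPM with a median of 0.345, and 8 of 10 of these libraries lay below all HDM.AIR libraries, a 3.03-fold lower level (log2FC -1.60 ± 0.41, adjusted p = 0.0011). In parenchyma it ranged from 0.132 to 0.935 CPM with a median of 0.269, with 6 of 10 libraries below all of HDM.AIR (log2FC -1.72 ± 0.41, adjusted p = 0.0005). The HDM.CS mice, whose Il6 was lower to begin with, gave log2FC 0.16, 95% interval -0.68 to 1, adjusted p = 0.89 in airway and log2FC 0.43, 95% interval -0.32 to 1.19, adjusted p = 0.61 in parenchyma. The difference between the dexamethasone effects in HDM.AIR and PBS.AIR was itself tested: for Il6 it was log2FC -2.03 ± 0.64, adjusted p = 0.045 in airway, beside 4.62% of all genes, and log2FC -2.45 ± 0.71, adjusted p = 0.012 in parenchyma, beside 12.4%. The airway value lost significance in 6 alternative fits, with an adjusted p of up to 0.092. Hp and Lbp passed this test in parenchyma too (log2FC -0.58 and -0.72, adjusted p = 0.012 and 0.0045).

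Lrg1 ranged from 17.2 to 42.6 CPM with a median of 20.4 in PBS.AIR airway and from 30.3 to 87.9 CPM with a median of 50.7 with dexamethasone, where 7 of 10 libraries exceeded all without it (log2FC 1.15 ± 0.26, adjusted p = 0.00048). In parenchyma the groups did not overlap, lying from 14.9 to 36.9 CPM with a median of 24.6 and from 37.9 to 127.5 CPM with a median of 60.7 (log2FC 1.38 ± 0.26, adjusted p = 1.3e-05). The highest group median of Lrg1 in the study was that of HDM.AIR.DEX parenchyma, 277 CPM against 164.1 in HDM.AIR, a difference that missed the threshold (log2FC 0.64, 95% interval 0.13 to 1.15, adjusted p = 0.051) and passed it in 7 alternative fits. Socs3 rose in PBS.AIR in airway (log2FC 0.64 ± 0.15, adjusted p = 0.001) and parenchyma (log2FC 0.64 ± 0.15, adjusted p = 0.0005), and in HDM.CS parenchyma (log2FC 0.51 ± 0.14, adjusted p = 0.014). In PBS.AIR parenchyma Hp rose from a median of 664 to 1011 CPM (log2FC 0.63 ± 0.12, adjusted p = 1.2e-05), and Lbp from 44.1 to 65.9 CPM without overlap (log2FC 0.60 ± 0.13, adjusted p = 0.00016).

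Saa3, which had the largest HDM and smoke effects of the 10 genes in airway, showed no detectable response to dexamethasone in HDM.AIR mice (log2FC 0.081, 95% interval -0.60 to 0.76, adjusted p = 0.9 in airway; log2FC -0.060, 95% interval -0.74 to 0.62, adjusted p = 0.93 in parenchyma). In PBS.CS parenchyma it fell from a median of 272 to 117.3 CPM (log2FC -0.91 ± 0.33, adjusted p = 0.04), a difference that lost significance in 3 alternative fits. Osm fell in the same comparison (log2FC -0.52 ± 0.17, adjusted p = 0.023) and Il6ra rose (log2FC 0.36 ± 0.13, adjusted p = 0.046), the latter with an adjusted p of 0.074 where no filter on low counts was used. Osmr rose slightly in PBS.AIR airway (log2FC 0.32 ± 0.095, adjusted p = 0.013), in HDM.CS airway (log2FC 0.30 ± 0.095, adjusted p = 0.026) and in HDM.CS parenchyma (log2FC 0.31 ± 0.095, adjusted p = 0.028). The Osmr value lost significance in 2 alternative fits for PBS.AIR airway and in 1 for HDM.CS airway. Orm1 passed the threshold in none of the 8 dexamethasone comparisons, although 4 alternative fits put its airway increase in PBS.AIR (log2FC 0.77, 95% interval 0.16 to 1.39, adjusted p = 0.079) past it.

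Of the other acute phase proteins, 3 of 24 in PBS.AIR mice were called higher and 1 lower in airway, and 2 higher and 1 lower in parenchyma, with Lcn2 (log2FC 1.72, adjusted p = 1.4e-10 in parenchyma) higher and Ptx3, the long pentraxin, lower in both tissues. In HDM.AIR mice none was called higher, while 3 were called lower in airway and 5 in parenchyma, and 8 and 10 had an adjusted p below 0.05 downward. Timp1 (log2FC -2.42, adjusted p = 9.6e-09 in parenchyma) and Ptx3 (log2FC -1.92, adjusted p = 1.1e-09) were called lower in both tissues of these mice. The median log2FC of the list in HDM.AIR mice was -0.325 in airway and -0.357 in parenchyma, beside 0.0046 and 0.006 over all genes. In PBS.CS mice 3 were called lower in airway and 4 in parenchyma and none higher, and in HDM.CS mice 1 was called lower, in parenchyma.

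Markers of other cells moved with dexamethasone as well. In PBS.AIR parenchyma, where Lrg1, Hp, Lbp and Socs3 rose, 5 of 7 neutrophil markers had an adjusted p below 0.05 upward, and their summed median was 236 CPM without and 442 with dexamethasone. The summed macrophage markers went from 799.9 to 1921 CPM there, with 2 of 7 markers passing upward and 2 downward. The median log2FC of these 7 markers was only 0.158. In PBS.AIR airway none of the 7 neutrophil markers passed, at summed medians of 101.4 and 179.5 CPM. Beside the fall of Il6 in HDM.AIR mice, 1 of 7 neutrophil markers passed downward in each tissue, and 3 of 4 eosinophil markers in airway and 4 of 4 in parenchyma did so. The summed neutrophil median went from 609 to 429.5 CPM in HDM.AIR airway. Of 8 alveolar markers, 7 passed upward in HDM.AIR airway and 6 in HDM.AIR parenchyma. The part of these markers in the changes of the 10 genes was not tested.

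**Figure D4:**
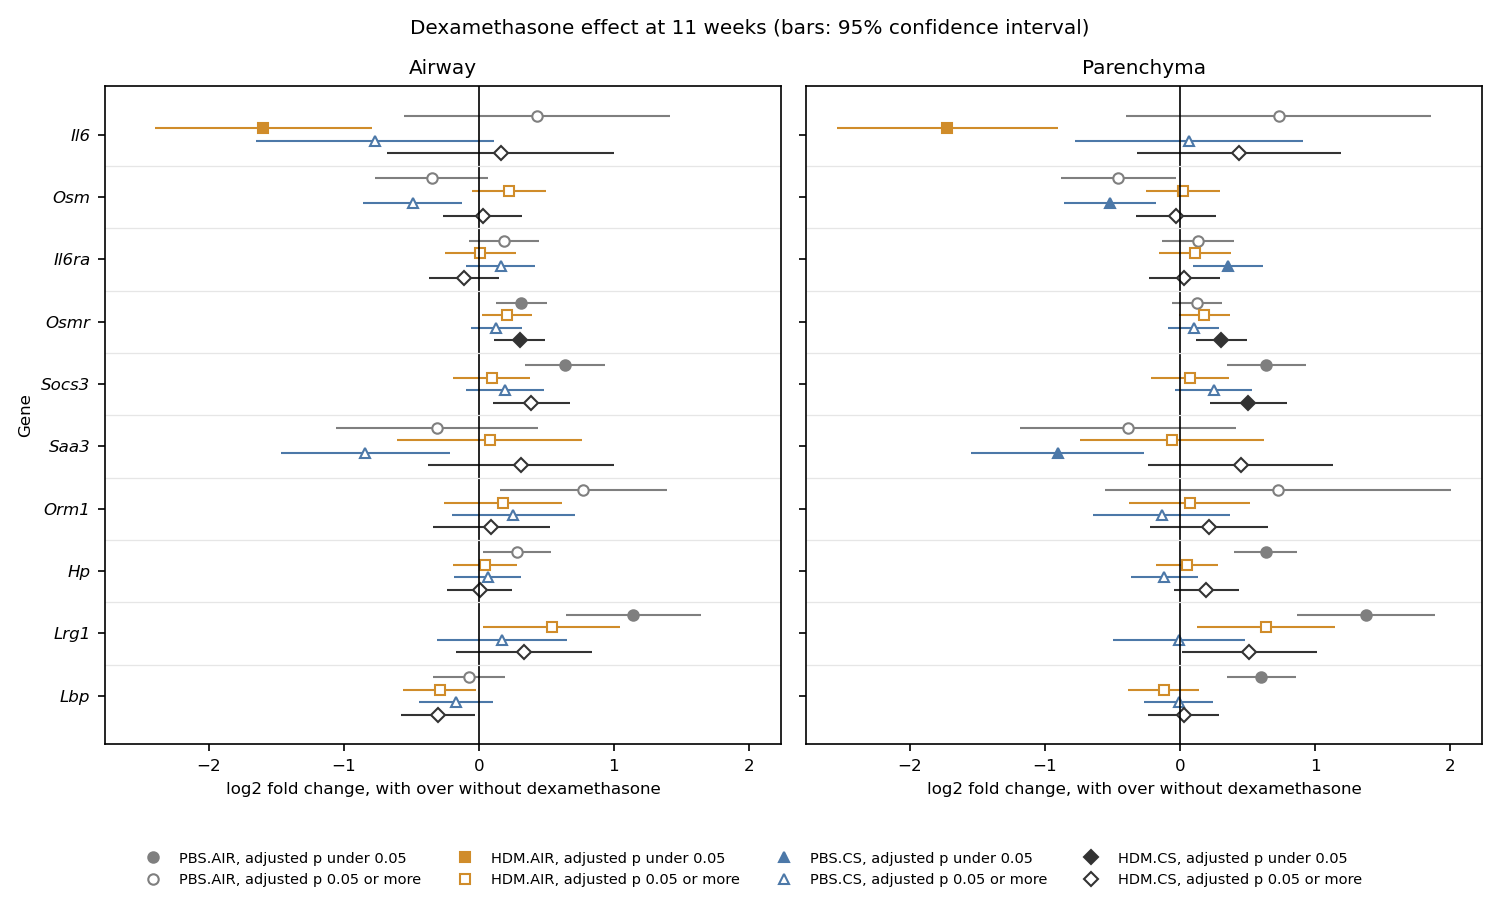
Log2 fold change with over without dexamethasone, with 95% confidence intervals, in the 4 exposure backgrounds for airway (left) and parenchyma (right); filled symbols have an adjusted p below 0.05. Il6 in HDM.AIR mice lies below -1 and Lrg1 in PBS.AIR mice above 1 in both tissues, while most other symbols are open.

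Control airway and control parenchyma were compared at each time, and 3 of the acute phase genes differed at both. In controls Orm1 and Lbp were called higher in airway than in parenchyma at both times, beside 10% of all genes at 3 weeks and 13.4% at 11 weeks. Lbp in PBS.AIR ranged from 89.3 to 237 CPM with a median of 122.2 in airway and from 33.9 to 52.8 CPM with a median of 44.1 in parenchyma, with no overlap (log2FC 1.61 ± 0.13, adjusted p = 8.7e-22). Orm1 ranged from 4.27 to 17.1 CPM with a median of 7.63 in airway and from 0.320 to 5.22 CPM with a median of 1.15 in parenchyma, with 7 of 10 airway libraries above all parenchyma libraries (log2FC 2.85 ± 0.55, adjusted p = 3.6e-06). Hp was higher in airway by less (log2FC 0.89 ± 0.12, adjusted p = 1.1e-10), and its 11-week control groups did not overlap either. At 3 weeks the values were log2FC 1.42 ± 0.14, adjusted p = 1.8e-10 for Lbp, log2FC 2.25 ± 0.41, adjusted p = 1.2e-05 for Orm1 and log2FC 0.57 ± 0.12, adjusted p = 0.00019 for Hp. Osmr was slightly lower in airway at 3 weeks (log2FC -0.22 ± 0.075, adjusted p = 0.013) and 11 weeks (log2FC -0.22 ± 0.094, adjusted p = 0.041), and lost significance in 3 and 6 alternative fits. Saa3 at 3 weeks missed the threshold (log2FC 0.61, 95% interval 0.036 to 1.19, adjusted p = 0.065) and passed it in 3 alternative fits, edgeR and DESeq2 among them, and Il6ra (log2FC 0.30, 95% interval 0.012 to 0.59, adjusted p = 0.071) passed it in 5. At 11 weeks Saa3 gave log2FC 0.087, 95% interval -0.66 to 0.83, adjusted p = 0.86 and Il6ra log2FC 0.070, 95% interval -0.20 to 0.34, adjusted p = 0.68. Il6, Osm, Socs3 and Lrg1 did not differ detectably between control tissues, with log2FC of 0.14, -0.24, -0.17 and 0.14 at 3 weeks and 0.71, -0.17, -0.27 and 0.011 at 11 weeks.

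For Orm1, Lbp and Hp, HDM and smoke at 11 weeks had a smaller or more negative effect in airway than in parenchyma. The airway effect of HDM less the parenchyma effect at 11 weeks was log2FC -2.72 ± 0.60, adjusted p = 0.00022 for Orm1, log2FC -0.95 ± 0.19, adjusted p = 4.9e-05 for Lbp and log2FC -0.78 ± 0.17, adjusted p = 0.00018 for Hp, beside 27.6% of all genes. At 3 weeks Orm1 (log2FC -2.22 ± 0.45, adjusted p = 0.00091) and Hp (log2FC -0.56 ± 0.18, adjusted p = 0.026) passed, beside 17.3%. Saa3 at 3 weeks (log2FC -1.16, 95% interval -2.08 to -0.23, adjusted p = 0.074) passed with edgeR and with DESeq2, and Il6 (log2FC -0.86, 95% interval -1.81 to 0.088, adjusted p = 0.21) with DESeq2. For smoke the differences were log2FC -2.44 ± 0.60, adjusted p = 0.0089 for Orm1, log2FC -0.88 ± 0.17, adjusted p = 0.0006 for Hp and log2FC -0.73 ± 0.19, adjusted p = 0.012 for Lbp, beside 3.73% of all genes. After HDM the Orm1 medians of the tissues were 45.4 and 42.8 CPM, and those of the controls 7.63 and 1.15 CPM. The summed adipose markers had a median of 520.2 CPM in PBS.AIR airway and 23.4 CPM in parenchyma, and their part in these differences was not tested. Without the 13 libraries whose markers went against their label, these 11-week differences kept their sign and stayed past the threshold, whereas the smoke difference of Orm1 had an adjusted p of 0.18 under a filter of 10 CPM.

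Across the 20 group means of log2 CPM, the 10 genes fell into likenesses that can be given as a description, since groups share tissue, time and exposure. Saa3 and Osm had a Pearson r of 0.937, Saa3 and Orm1 of 0.861, Saa3 and Lrg1 of 0.86, and Il6 and Socs3 of 0.809. Hp had negative values with 8 of the other 9, from -0.603 with Osm, and 0.094 with Lbp. Among 14063 protein-coding genes, those most like Il6 were Psmd14 (r = 0.982) and Thoc6 (0.96), and those most like Osm were Mmp12 (0.979), the macrophage elastase, and Cotl1 (0.975). The closest to Socs3 were Slc39a1 (0.971) and Acp2 (0.969), and to Saa3 Mfsd1 (0.975) and Zc3h12a (0.971), which encodes the RNase regnase-1. Orm1 was most like Pigr (0.971), the polymeric immunoglobulin receptor, and Ackr1 (0.97), and Lbp most like Slc13a2 (0.97) and Muc4 (0.959). For Lrg1 the closest were Lhfpl2 (0.981) and Stra6l (0.98), for Il6ra Tbck and Gatad2b (0.989 each), for Osmr Aifm3 (0.92) and Tpp1 (0.917), and for Hp Cyb5rl (0.903) and Ttc36 (0.9).

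In the order of group medians, Il6, Socs3 and Saa3 were highest in 3-week HDM parenchyma, at 3.44, 146.8 and 1094 CPM, and next highest in 3-week HDM airway, the ranges of these 2 groups overlapping for each gene. Osm was also highest in 3-week HDM parenchyma, at 9.86 CPM, followed by HDM.AIR.DEX parenchyma at 7.17 CPM with an overlapping range. Il6, Orm1, Hp and Lbp were lowest in PBS.AIR parenchyma. Orm1 was highest in HDM.CS airway, at 62.3 CPM, but its range there overlapped that of every other HDM group. Osmr and Il6ra had their highest medians in dexamethasone groups, 103.8 CPM in HDM.CS.DEX parenchyma and 37.7 CPM in PBS.CS.DEX parenchyma, and for both the ranges of all 11-week groups overlapped their neighbours in the order.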

How the data were processed

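Bulk RNA-seq of all libraries in 20 groups was analysed. Per the labels and the submitters' processing notes, the authors used bcl2fastq 2.20.0.422, STAR 2.5.1b, RSEM 1.2.31 and kallisto 0.44.0 with mm10, and the table they deposited holds estimated counts per gene, of which 20.3% of non-zero values are not whole. All columns were used. Counts were rounded to whole numbers. Of 43346 identifiers, 42462 received a GENCODE M21 symbol by stable ID, and 53.3% carry the M21 version, so the authors' annotation may be another release. Library totals of 13003111 to 40240710 set the precision. The 10 genes are shown as CPM of the library total multiplied by its TMM factor, which was computed over all libraries.

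Genes with about 10 counts in 9 libraries were kept (17381 at 3 weeks, 18250 at 11 weeks, 18528 in the fit of all libraries). TMM factors (edgeR 4.0.16) and limma-voom (limma 3.58.1, R 4.3.3) with 1 mean per group were fitted to each time, and p-values were adjusted by Benjamini-Hochberg over all genes tested. Effects at 11 less 3 weeks were fitted over all libraries. The comparisons of the same exposure between times came from that fit and were added after the data were seen. Errors are standard errors. Scripts were tested on simulated data. The results were recomputed with DESeq2 1.42.0, with the quasi-likelihood test of edgeR, and with other size factors, other filters, sample quality weights, other sets of libraries per fit, leaving out 13 libraries whose markers went against their label, and leaving out 3 libraries that stood apart, the last chosen after seeing the data. All 10 genes were tested in every comparison and were to be named in each, although in the dexamethasone comparisons, the tests of differences between effects and the comparisons between times the text gives mainly those past the threshold. From each other list, it names at most the 3 largest changes among those called, besides counts and the members of small counts. Some results of 1 list are not reported here. The genes, lists and tests were chosen with earlier results of these data known. No 2 libraries of a group agreed within sampling noise.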

Additional observations from a re-analysis of the deposited data

Results flagged for a closer look

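In 180 sets of one gene in one group of 10 libraries, the highest or lowest library was compared with its neighbours on the log2 scale, and 12 lay further away than Dixon's 95% limit, where chance gives about 1 in 20. Replicate numbers only name libraries in their order within a group and pair no libraries across groups. Replicate 6 of PBS.CS.DEX parenchyma was high for Il6 (2.82 CPM against a group median of 0.54), Socs3 (116.4 against 64.7 CPM) and Saa3 (387.0 against 117.3 CPM). Replicate 8 of HDM.CS.DEX airway was high for Il6 (2.86 against 0.416 CPM) and Socs3 (96.1 against 64.6 CPM). Replicate 8 of HDM.CS.DEX parenchyma was high for Socs3 (136.1 against 80.3 CPM). Replicate 5 of PBS.CS parenchyma was low for Saa3 (91.4 against 272.4 CPM) and Orm1 (9.17 against 21.3 CPM), and replicate 9 of that group was high for Hp (1695 against 1265 CPM). Replicate 9 of HDM.AIR.DEX parenchyma was low for Saa3 (68.6 against 327.6 CPM), replicate 2 of PBS.AIR.DEX airway low for Orm1 (2.88 against 14.7 CPM), and replicate 4 of 3-week HDM airway high for Lbp (672.2 against 205.0 CPM).

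Effects differed between tissues or times in 13 cases by limma's test of the difference. The airway effect of HDM less the parenchyma effect was -0.56 for Hp and -2.22 for Orm1 at 3 weeks, and -0.78 for Hp, -2.72 for Orm1 and -0.95 for Lbp at 11 weeks, all on the log2 scale. For smoke it was -0.88 for Hp, -2.44 for Orm1 and -0.73 for Lbp. The HDM effect at 11 weeks less that at 3 weeks was -1.12 for Il6ra and -0.69 for Socs3 in airway, and -1.42 for Il6ra, -0.58 for Osm and -1.15 for Socs3 in parenchyma. Of all genes tested, 17.3% passed the tissue difference for HDM at 3 weeks, 27.6% for HDM at 11 weeks and 3.73% for smoke. The difference between times was passed by 28.4% of all genes in airway and 42.4% in parenchyma.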

How the results depend on the processing

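The member comparisons with an adjusted p below 0.05 were recomputed to give 1025 alternative values, of which 987 kept their direction and their side of the threshold, 38 lost significance and 0 reversed. The number of members called when smoke was added to HDM was 1, and became 2 with edgeR, with DESeq2, without the libraries whose markers went against their label and without the 3 libraries that stood apart, and 0 with a filter of 10 CPM. The number called with dexamethasone, 4, became 2 with that filter, under which Il6 was not tested. The other counts stayed within 1.5 times. No paired analysis was possible because the labels give no replicate number that groups share, the replicate numbers used here being the order of the libraries within a group. With 10 or more libraries per group, single replicates were not left out in turn. Il6, the least abundant gene, was the member most limited by depth.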

Other observations

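Markers of other cells moved with HDM too. Of 4 measurable eosinophil markers, 4 were called higher in 3-week airway and 3 in 3-week parenchyma, but 2 and 1 at 11 weeks and none with smoke in either tissue. All 5 endothelial markers were called lower with HDM in 11-week parenchyma and 4 in 3-week parenchyma, and none with smoke. In 11-week airway 7 of 8 airway markers were called lower with HDM, against 1 of 8 in parenchyma. Their part in the levels of the 10 genes was not tested.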
